A study of Mus musculus with 12 samples.

Results

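The genes described here are members of the Bcl2 family and apoptosis genes next to it: Bcl2, Bcl2l1, Bcl2l11, Bbc3, Bid, Hrk, Casp8, Casp12 and Bax. They were chosen by name, with earlier results of these data known. Every probe set whose annotated gene symbol was exactly 1 of the 9 names was taken. This gave 23 of the 45037 probe sets tested and 8 of the 9 genes. Bcl2 and Bcl2l11 had 5 probe sets each, Bcl2l1 had 4, Bid had 3, Hrk and Casp12 had 2 each, and Bbc3 and Casp8 had 1 each. No probe set matched Bax under this rule, so Bax was not analysed here. The tissue was the modiolus of adult CBA/CaJ mice of 8 to 12 weeks, the core of the cochlea that carries the auditory nerve, and both sexes were used. Right ears were exposed to ouabain at 3 mM in about 10 µl for 60 min through the round window and were taken 3 or 7 days later. Ouabain blocks the sodium potassium pump and is used to kill spiral ganglion neurons. The opposite ears had no surgery and served as controls of the same days, so ouabain, the operation and the side of the head cannot be told apart. The study left out ears whose hearing thresholds had shifted too little after ouabain. There were 4 groups of 3 Affymetrix arrays (ouabain at 3 days, control at 3 days, ouabain at 7 days, control at 7 days), each array with RNA of 2 preparations combined. Which animals entered which array is not given, so that p-values measure the spread between pooled samples, and the RNA input was 50 ng in the methods and 100 ng in the labels.

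Apoptosis through mitochondria is set by the balance within the Bcl2 family. Bcl2 and Bcl2l1 (Bcl-xL) hold the outer mitochondrial membrane closed, Bax and Bak1 open it, and BH3-only proteins such as Bcl2l11 (Bim), Bbc3 (Puma), Bid and Hrk bind the guardians or the pore formers and tip the balance toward death. Casp8 starts apoptosis from death receptors and cleaves Bid, which joins that route to mitochondria, and Casp12 is a caspase of the inflammatory group that has been tied in mice to stress of the endoplasmic reticulum. Hrk, Bbc3 and Bcl2l11 are known as genes that neurons switch on when they lose trophic support.

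The promoters of the genes that passed the test (Bcl2, Casp8 and Casp12), and of Bcl2l11, whose estimates lay below 0 at 3 days and above 0 at 7 days, are given here to show the DNA around the annotated starts of these genes. Sequences run from 250 bases before to 50 bases after the annotated start in RefSeq on mouse build GRCm38.p6, and capitals mark matches to the searched motifs other than the E-box. The Bcl2 window lies on the minus strand at chr1:106714241-106714540, that of Casp8 on the plus strand at chr1:58802252-58802551, that of Casp12 on the plus strand at chr9:5345226-5345525 and the first of the 2 Bcl2l11 windows on the plus strand at chr2:128125788-128126087. The Casp8 gene is annotated from base 58795233 to base 58847503, so its window lies at a start inside the gene and not at its outer end.
Bcl2: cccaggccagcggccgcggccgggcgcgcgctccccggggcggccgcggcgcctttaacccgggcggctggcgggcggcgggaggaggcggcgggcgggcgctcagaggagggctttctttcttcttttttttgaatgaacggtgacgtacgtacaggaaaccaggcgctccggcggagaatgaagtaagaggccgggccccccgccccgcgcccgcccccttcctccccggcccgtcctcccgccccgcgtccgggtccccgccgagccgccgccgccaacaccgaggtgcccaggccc
Casp8: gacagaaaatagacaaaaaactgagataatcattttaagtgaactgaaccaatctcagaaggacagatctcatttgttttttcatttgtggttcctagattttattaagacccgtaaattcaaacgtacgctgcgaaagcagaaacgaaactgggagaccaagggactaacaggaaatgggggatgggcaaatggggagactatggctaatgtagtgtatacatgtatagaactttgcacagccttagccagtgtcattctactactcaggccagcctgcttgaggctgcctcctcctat
Casp12: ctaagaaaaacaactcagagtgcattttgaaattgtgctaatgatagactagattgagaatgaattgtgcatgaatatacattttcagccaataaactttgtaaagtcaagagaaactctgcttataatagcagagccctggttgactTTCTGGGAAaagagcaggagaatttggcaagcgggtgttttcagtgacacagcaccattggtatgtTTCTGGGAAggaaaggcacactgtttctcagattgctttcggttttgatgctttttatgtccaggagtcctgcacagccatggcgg
Bcl2l11: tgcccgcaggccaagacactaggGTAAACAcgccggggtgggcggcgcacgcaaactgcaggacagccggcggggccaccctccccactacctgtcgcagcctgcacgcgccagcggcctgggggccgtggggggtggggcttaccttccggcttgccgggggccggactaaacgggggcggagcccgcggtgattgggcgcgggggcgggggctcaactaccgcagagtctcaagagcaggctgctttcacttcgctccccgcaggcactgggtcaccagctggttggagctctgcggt
The Bcl2 window is rich in G and C (76%), as is that of Bcl2l11 (71%), while the windows of Casp8 and Casp12 hold 42% and 41%, against a median of 52.7% over 32851 promoter windows of this length. The motifs were searched on both strands. The FOXO motif GTAAACA matched once in the Bcl2l11 window, 227 bases before the start, and 3.65% of all windows hold it. The other Bcl2l11 window, not printed here, had no match to this motif. The STAT motif TTCNNNGAA matched at 102 and at 36 bases before the start of Casp12, and at least 2 such matches occur in 0.457% of windows, while 8.3% hold 1 or more. No match to AP-1 (TGANTCA, 7.81% of windows), CRE (TGACGTCA, 1.79%), the TATA box (TATAAA, 13.6%), the p53 half-site (8.36%) or NF-kappaB (4.51%) was found in these 4 windows. The E-box CANNTG, which 72.3% of windows hold, matched 3 times in the Casp8 window and once in the Bcl2l11 window. A match only says that these letters are there.

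The values are log2 expression by RMA, a difference of 1 is a 2-fold change, and log2 differences are ouabain minus control with their standard error (SE). The share of probe sets with a value above 6 was 50.1% to 51.2% over the arrays. A probe set was called higher or lower at an adjusted p below 0.05 (limma, Benjamini-Hochberg over the 45037 probe sets) with a change above 1.5-fold. Of the spiral ganglion neuron markers, 11 of 12 were lower in ouabain-treated nerves at each day. Ouabain replicate 1 at 3 days and control replicate 1 at 7 days stood apart from the other arrays of their groups, the first in neuron markers and the second in markers of erythroid and dividing cells. Without these 2 arrays 7 member probe sets were called at 3 days and 8 at 7 days, against 6 and 8 with all arrays. Other arrays differed too, by the median deviation of the markers from their means over the 12 arrays. In neuron markers ouabain replicate 1 at 7 days had -0.90, against -2.09 and -2.49 in replicates 2 and 3. In neutrophil markers control replicates 1, 2 and 3 at 7 days had 1.16, -0.12 and -1.67. In whole tissue, fewer cells of a type and less RNA per cell cannot be told apart.

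Expression of Bcl2, Casp8 and Casp12 was higher in ouabain-treated nerves at 3 and at 7 days, by 1.67-fold to 2.62-fold in the probe sets of Casp8 and Casp12 and by 1.91-fold to 2.99-fold in the called probe sets of Bcl2. No probe set of Bcl2l1, Bcl2l11, Bbc3, Bid or Hrk was called at either day. Of the 23 member probe sets, 6 (26.1%) were called higher at 3 days, where 5.71% of all probe sets were, and 8 (34.8%) at 7 days, where 6.14% of all were. By brightest probe sets, 3 of 8 genes (37.5%) were called higher at each day, against 7.51% and 7.57% of all genes. Since the members were chosen with earlier results of these data known, these shares are only a description. None of the 23 was called lower with limma, against 6.58% of all probe sets at 3 days and 6.51% at 7 days. At an unadjusted p below 0.05 and any fold, 2 member probe sets were lower at 3 days and 1 at 7 days, against 15.5% and 14.9% of all probe sets. All 3 ouabain values lay above all 3 control values in 9 of the 23 probe sets at 3 days (39.1%, against 19.6% of all) and in 11 at 7 days (47.8%, against 21.4%). All 3 lay below in 4 at 3 days (17.4%, the same share as over all, 17.4%) and in 0 at 7 days (16.9% of all). The median log2 difference of the member probe sets was 0.14 at 3 days and 0.29 at 7 days, against 0.019 and 0.026 over all probe sets. An unequal-variance form of the test with adjusted p called 0 at 3 days and 2 at 7 days. A total of 18 of the 23 exceeded 6 on at least 3 arrays. Those that did not were 1 probe set of Bcl2l1, 1 of Bcl2l11, 2 of Bid and 1 of Hrk.

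**Figure D1:**
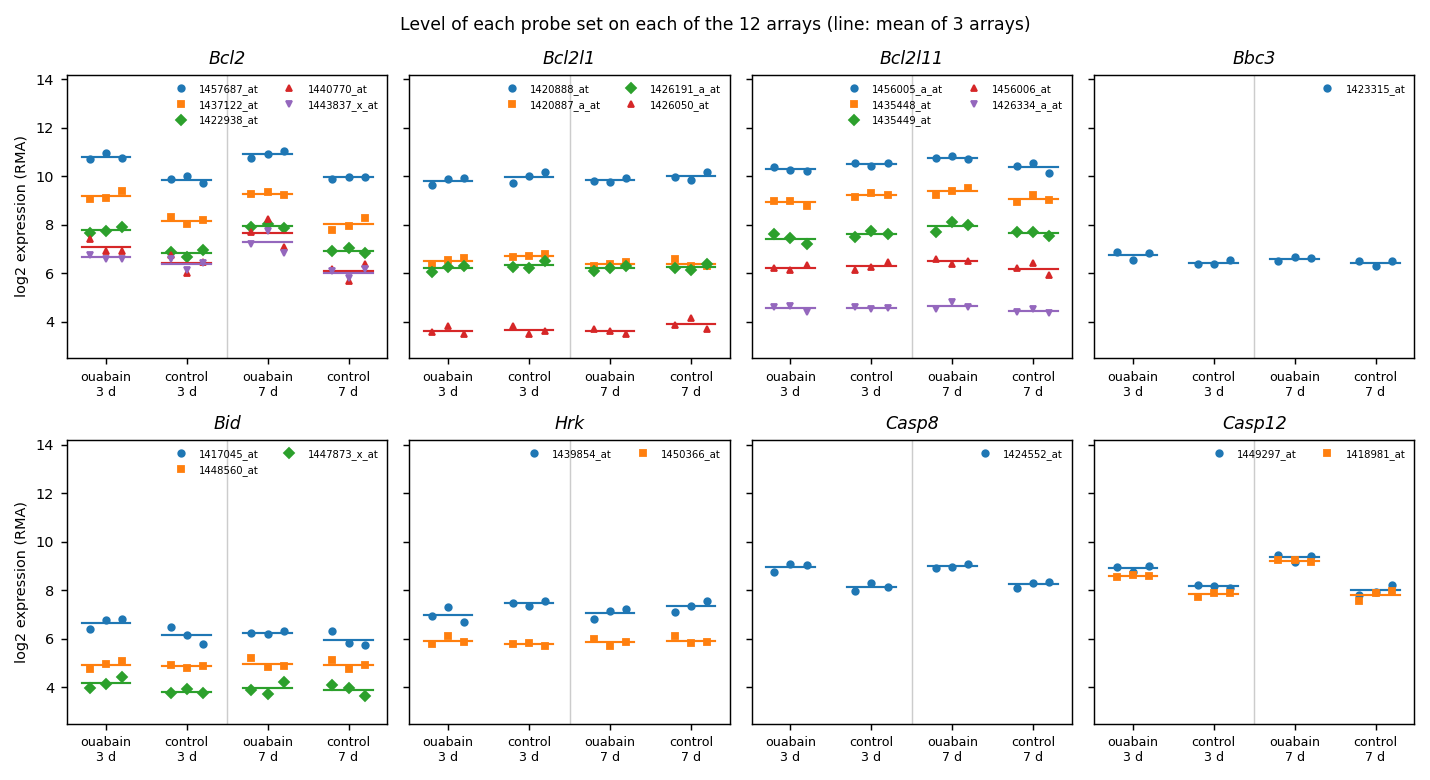
The log2 expression value (RMA, vertical axis) of each of the 23 probe sets is plotted for every array, by gene, with ouabain left of control at 3 and at 7 days; points are arrays and lines are means of 3. In Bcl2, Casp8 and Casp12 the ouabain points of the called probe sets lie above all control points of the same day, while in Bcl2l1 they largely overlap.

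Bcl2, the founding inhibitor of apoptosis of the family, was higher at both days, with values above every control in 4 of its 5 probe sets at 3 days and in all 5 at 7 days. The probe set with the highest mean (1457687_at) had 10.70, 10.98 and 10.77 in ouabain-treated nerves at 3 days, against 9.87, 10.00 and 9.72 in controls. Its values at 7 days were 10.74, 10.94 and 11.03 in ouabain-treated nerves, against 9.91, 9.97 and 10.00 in controls. The groups did not overlap at either day, and the control arrays of the 2 days lay within the same narrow span. The log2 difference was 0.95 at 3 days (SE 0.11, adjusted p = 4.31e-05) and 0.95 at 7 days (SE 0.11, adjusted p = 4.37e-05), or 1.93-fold at each day.

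A second probe set of Bcl2 (1437122_at) had 9.07, 9.12 and 9.39 in ouabain-treated nerves and 8.34, 8.02 and 8.19 in controls at 3 days. The 7-day values were 9.28, 9.37 and 9.23 in ouabain-treated nerves and 7.81, 7.96 and 8.29 in controls. Its log2 difference was 1.01 at 3 days and 1.27 at 7 days (SE 0.13 each, adjusted p = 0.000134 and 2.45e-05). The third (1422938_at) had 7.68, 7.76 and 7.93 in ouabain-treated nerves and 6.90, 6.69 and 6.99 in controls at 3 days. The 7-day arrays gave 7.91, 8.04 and 7.88 with ouabain, against 6.92, 7.04 and 6.84 in controls. Its log2 difference was 0.93 and 1.01 (SE 0.10 each, adjusted p = 3.86e-05 and 2.08e-05). These 3 probe sets were thus raised by about the same amount, and ouabain and control arrays were apart in each.

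The other 2 probe sets of Bcl2 differed from these at 3 days. In 1440770_at the ouabain arrays had 7.41, 6.92 and 6.91 at 3 days, against 6.78, 6.02 and 6.47 in controls, for a log2 difference of 0.66 (SE 0.29, adjusted p = 0.134). At 7 days they had 7.70, 8.24 and 7.09, against 6.20, 5.69 and 6.41 in controls, a difference of 1.58 (SE 0.29, adjusted p = 0.00154). The spread between ouabain arrays at 7 days (SD 0.58) was the widest of the Bcl2 probe sets. In 1443837_x_at, a probe set whose suffix marks probes that may also match other transcripts, the 3-day values overlapped (6.78, 6.61 and 6.60 in ouabain-treated nerves, 6.61, 6.14 and 6.44 in controls, log2 difference 0.26, adjusted p = 0.413). At 7 days it had 7.23, 7.74 and 6.86 in ouabain-treated nerves and 6.09, 5.80 and 6.18 in controls, a difference of 1.25 (SE 0.19, adjusted p = 0.000506). With adjusted p of the methods' t-test, both lost the 7-day call (0.0848 and 0.0669). The same ouabain array, replicate 2, was highest and replicate 3 was lowest in both probe sets at 7 days. The mean over the 5 probe sets of Bcl2 was 0.76 higher at 3 days (SE 0.12, adjusted p = 0.000449) and 1.21 higher at 7 days (SE 0.12, adjusted p = 1.58e-05).

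Bcl2l1 encodes Bcl-xL, the other guardian of the set. Its probe set with the highest mean (1420888_at) had 9.63, 9.90 and 9.93 in ouabain-treated nerves and 9.74, 10.02 and 10.20 in controls at 3 days. At 7 days the values were 9.83, 9.75 and 9.94 in ouabain-treated nerves and 9.97, 9.86 and 10.19 in controls. The groups overlapped at both days. Ouabain minus control gave a log2 difference of -0.16 at 3 days (95% interval -0.45 to 0.12, adjusted p = 0.462) and -0.17 at 7 days (-0.45 to 0.12, adjusted p = 0.424), and the intervals reach down to a fall of 0.45. All 4 probe sets had estimates below 0, between -0.21 and -0.02 at 3 days and between -0.29 and -0.02 at 7 days, and none had an adjusted p below 0.139.

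Bcl2l11 encodes Bim, a BH3-only protein that binds all guardians of the family. Its 5 probe sets had estimates below 0 at 3 days, from -0.32 to -0.01, and above 0 at 7 days, from 0.20 to 0.39. The brightest (1456005_a_at) had 10.39, 10.28 and 10.24 in ouabain-treated nerves and 10.54, 10.44 and 10.57 in controls at 3 days, with every ouabain value below every control value. At 7 days it had 10.76, 10.83 and 10.71 in ouabain-treated nerves and 10.41, 10.54 and 10.16 in controls, with every ouabain value above. This gave a log2 difference of -0.21 at 3 days (SE 0.10, adjusted p = 0.162) and 0.39 at 7 days (SE 0.10, adjusted p = 0.0114), a 1.31-fold change that did not reach 1.5-fold. The next (1435448_at) showed the same order, with 8.99, 8.99 and 8.79 in ouabain-treated nerves and 9.15, 9.33 and 9.25 in controls at 3 days. Its 7-day values were 9.25, 9.40 and 9.52 in ouabain-treated nerves and 8.93, 9.22 and 9.04 in controls. Its log2 difference was -0.32 at 3 days and 0.33 at 7 days (SE 0.10 each), with adjusted p = 0.0456 and 0.0357 and changes below 1.5-fold. In the 3 other probe sets ouabain and control arrays overlapped at both days. The suffix of 1456005_a_at marks probes shared by several transcripts of the gene, and the isoforms of Bim were not resolved here.

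Bbc3 encodes Puma, a BH3-only protein that p53 induces. It had 6.87, 6.57 and 6.85 in ouabain-treated nerves and 6.38, 6.40 and 6.56 in controls at 3 days. The values at 7 days were 6.53, 6.67 and 6.64 in ouabain-treated nerves and 6.52, 6.29 and 6.52 in controls. The ouabain arrays lay above the controls at both days, by a narrow margin. The log2 difference of 0.32 at 3 days (SE 0.10) had an adjusted p of 0.047 at 1.24-fold, below the 1.5-fold limit, and that of 0.17 at 7 days had an adjusted p of 0.289.

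Bid carries the signal of Casp8 to mitochondria. The only one of its 3 probe sets above 6 on at least 3 arrays (1417045_at) had 6.38, 6.75 and 6.82 in ouabain-treated nerves and 6.48, 6.16 and 5.78 in controls at 3 days. The values at 7 days were 6.23, 6.18 and 6.32 in ouabain-treated nerves and 6.30, 5.82 and 5.76 in controls. Groups overlapped at both days through control replicate 1, which was the highest control each time. Its log2 difference was 0.52 at 3 days (SE 0.19, adjusted p = 0.0687) and 0.28 at 7 days (SE 0.19, adjusted p = 0.326). Without ouabain replicate 1 it was 0.65 at 3 days (adjusted p = 0.0351) and without control replicate 1 it was 0.69 (adjusted p = 0.0222), each of which would pass the test. Over all the alternative fits described below, the 3-day difference ran from 0.33 to 0.69, so it also fell in some. The 2 dimmer probe sets had differences of 0.37 and 0.07 at 3 days and of 0.05 and 0.03 at 7 days.

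Hrk, a BH3-only protein of neurons, had estimates below 0 in its brighter probe set. This probe set (1439854_at) had 6.93, 7.31 and 6.67 in ouabain-treated nerves and 7.47, 7.37 and 7.57 in controls at 3 days. At 7 days it had 6.80, 7.13 and 7.24 in ouabain-treated nerves and 7.09, 7.37 and 7.54 in controls. All ouabain arrays lay below the controls at 3 days, and the groups overlapped at 7 days. The log2 difference was -0.50 at 3 days (SE 0.17, adjusted p = 0.0516) and -0.28 at 7 days (SE 0.17, adjusted p = 0.274). Without ouabain replicate 2, the highest of its group, the 3-day difference was -0.67 (adjusted p = 0.0126). Over all the alternative fits it ran from -0.67 to -0.35, so it was also weaker in some. The summed level of the neuron markers, on a log2 scale, ranged between 13.92 and 14.89 in ouabain-treated nerves and between 16.13 and 16.21 in controls at 3 days. At 7 days it ranged between 13.34 and 14.14 in ouabain-treated nerves and between 16.00 and 16.13 in controls. The part of this fall in the values of Hrk was not tested. The dimmer probe set had 0.14 at 3 days and -0.08 at 7 days.

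Casp8, the initiator caspase of death receptors, was higher in ouabain-treated nerves at both days and had a single probe set (1424552_at). The values were 8.76, 9.07 and 9.03 in ouabain-treated nerves at 3 days, against 7.96, 8.31 and 8.14 in controls. At 7 days they were 8.92, 8.95 and 9.07 in ouabain-treated nerves, against 8.08, 8.30 and 8.33 in controls. The groups were apart at both days, and the lowest ouabain array exceeded the highest control by more than the SD of either group. The log2 difference was 0.82 at 3 days (SE 0.12, 1.76-fold, adjusted p = 0.000247) and 0.74 at 7 days (SE 0.12, 1.67-fold, adjusted p = 0.000525).

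Casp12 was higher at both days in each of its probe sets, with larger estimates at 7 days. The first (1449297_at) had 8.98, 8.76 and 9.01 in ouabain-treated nerves and 8.22, 8.18 and 8.11 in controls at 3 days. At 7 days it had 9.46, 9.18 and 9.41 in ouabain-treated nerves and 7.79, 7.95 and 8.23 in controls. The log2 difference was 0.75 at 3 days (SE 0.12, 1.68-fold, adjusted p = 0.00064) and 1.36 at 7 days (SE 0.12, 2.57-fold, adjusted p = 7.89e-06). The ouabain mean was 8.91 at 3 days and 9.35 at 7 days, and the control mean was 8.17 and 7.99. The second (1418981_at) had 8.56, 8.62 and 8.61 in ouabain-treated nerves and 7.72, 7.89 and 7.89 in controls at 3 days. Its values at 7 days were 9.23, 9.23 and 9.14 in ouabain-treated nerves and 7.55, 7.91 and 7.97 in controls. Its log2 difference was 0.76 at 3 days and 1.39 at 7 days (SE 0.11 each, adjusted p = 0.000208 and 2.68e-06). Both probe sets therefore gave nearly the same response at each day.

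**Figure D2:**
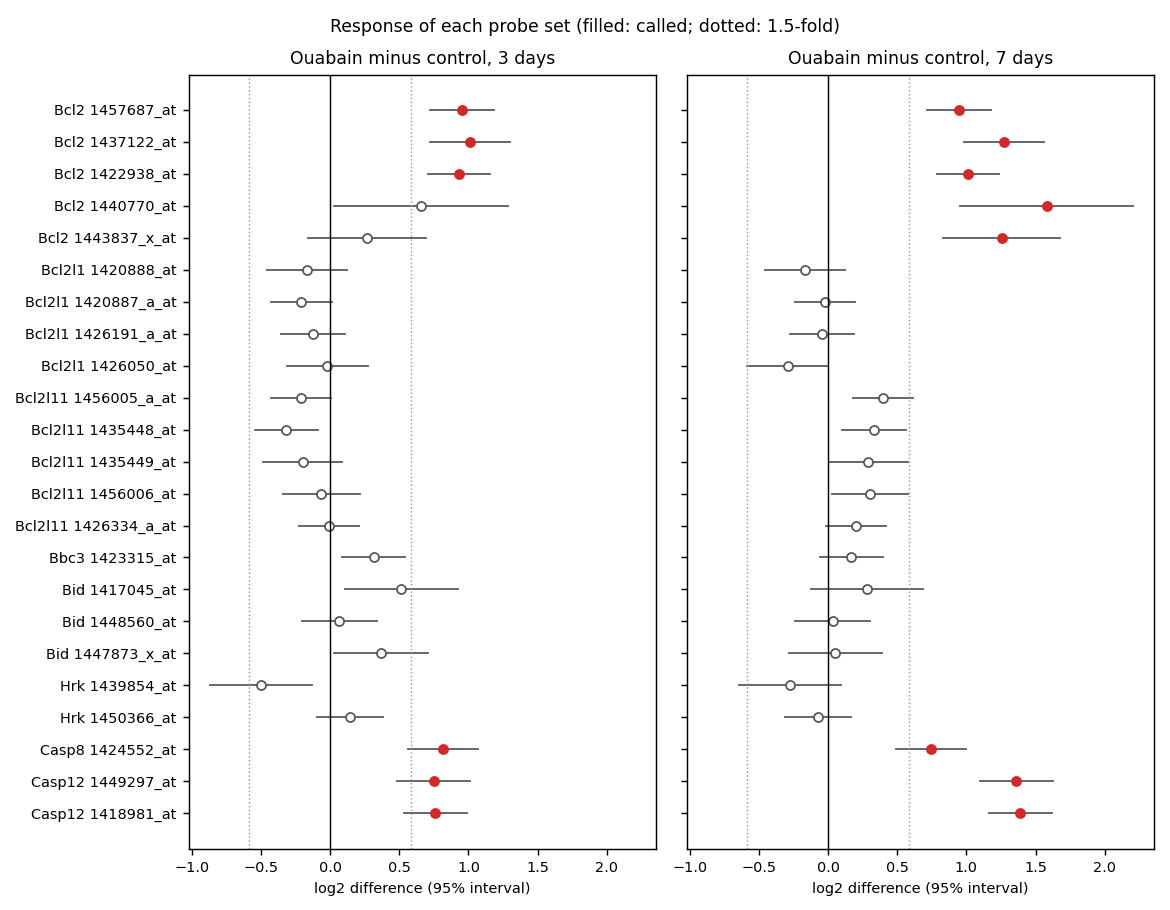
The log2 difference (ouabain minus control, horizontal axis) of the 23 probe sets is shown at 3 days on the left and at 7 days on the right, with 95% intervals from limma; filled points were called and dotted lines mark a 1.5-fold change. The called points are those of Bcl2 (3 probe sets at 3 days, 5 at 7 days), Casp8 (1) and Casp12 (2), and those of Bcl2l11 lie left of 0 at 3 days and right of 0 at 7 days.

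Macrophage markers were also higher in ouabain-treated nerves. All 12 such genes rose at 3 days and 11 of them at 7 days. Their summed level on a log2 scale ranged between 14.55 and 14.85 in ouabain-treated nerves and between 12.38 and 12.82 in controls at 3 days. At 7 days it ranged between 14.47 and 14.60 in ouabain-treated nerves and between 12.57 and 12.85 in controls. At most 1 of the 12 had a mean under 6 in any group. Casp8 is expressed widely, blood-derived cells included, and the part of macrophages in the values of Bcl2, Casp8 and Casp12 was not tested. Markers of dividing cells were higher in 7 of 7 genes at 3 days and in 0 of 7 at 7 days (limma, also 0 at an unadjusted p below 0.05), and their part in the values of the members was not tested. Their median deviations at 7 days were 0.918, -1.008 and -1.175 in control replicates 1, 2 and 3. Those of ouabain-treated nerves were -0.17, -0.71 and -0.06. With control replicate 1 so far from the others, the 0 of 7 does not show that these markers were back at the control level. Of 7 markers of myelinating Schwann cells, 3 fell at 3 days and 4 at 7 days.

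The response at 7 days minus that at 3 days was called for no member probe set (limma, 0.822% of all probe sets called), and 7 of the 23 had an unadjusted p below 0.05 with a larger value at 7 days, as did 6.51% of all probe sets. For Casp12 this difference was 0.62 (SE 0.17, adjusted p = 0.134) and 0.63 (SE 0.15, adjusted p = 0.0811) in its probe sets, and their mean, tested over gene means, gave 0.62 (SE 0.14, adjusted p = 0.0452). For Bcl2l11 it was 0.65 (SE 0.15, adjusted p = 0.0719) in 1435448_at and 0.61 (SE 0.14, adjusted p = 0.0742) in 1456005_a_at, and it ranged from 0.21 to 0.65 over the 5 probe sets. These 2 probe sets passed with only the probe sets above 6 on at least 3 arrays in the test (adjusted p = 0.0442 and 0.0452). For Bcl2 the difference ran from -0.0024 in the brightest probe set to 0.99 in 1443837_x_at (95% interval 0.39 to 1.59, adjusted p = 0.135). For Casp8 it was -0.07 (95% interval -0.43 to 0.28). Controls of 7 days against controls of 3 days gave no called member probe set (limma, 0.0111% of all called) and 1 at an unadjusted p below 0.05 (6.89% of all), which was 1420887_a_at of Bcl2l1 with -0.32 (SE 0.10, adjusted p = 0.639).

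**Figure D3:**
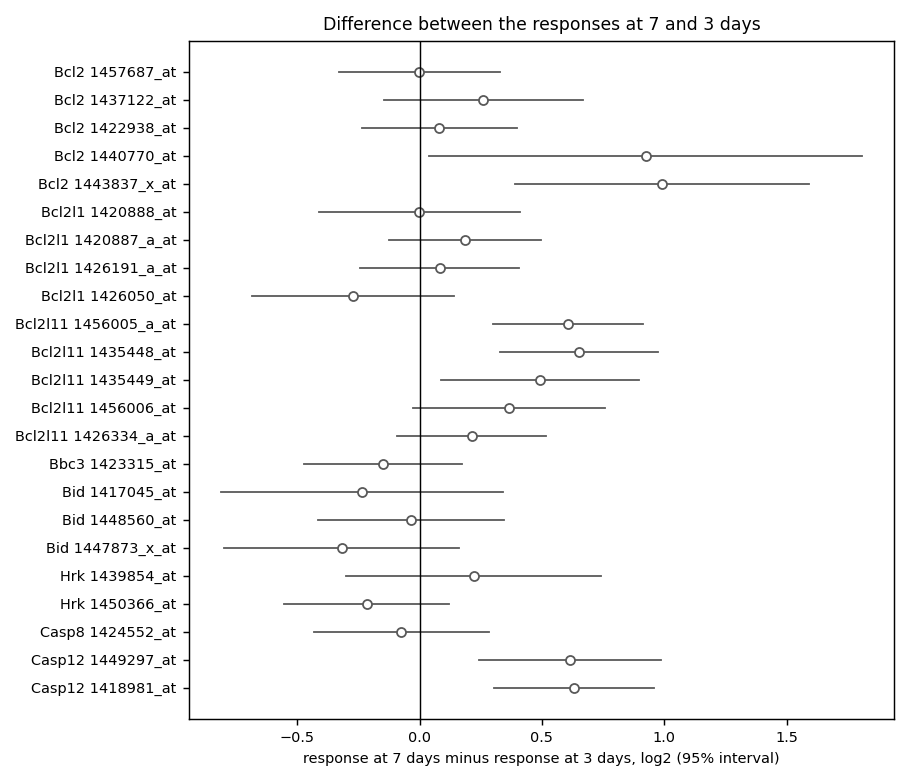
The response at 7 days minus the response at 3 days (log2, horizontal axis) is shown for each of the 23 probe sets with its 95% interval from limma; open points were not called. The intervals of both Casp12 probe sets, of 3 Bcl2l11 probe sets and of 2 Bcl2 probe sets lie right of 0, and that of Casp8 spans it.

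The other genes of these routes were read from lists of named genes, each gene by its brightest probe set, beside 7.51% of 18193 genes called higher and 8.06% called lower at 3 days and 7.57% and 8.2% at 7 days. Of 12 other Bcl2 family genes, 2 rose and 1 fell at 3 days, and 3 rose and 1 fell at 7 days, with a median of 0.25 and 0.20. Bok, a pore former akin to Bax, was higher at 3 days (0.94, SE 0.14, adjusted p = 0.000331) and had -0.25 at 7 days. Bak1, the partner of Bax, was higher at 3 days (0.88, SE 0.10, adjusted p = 3.62e-05) and had 0.41 at 7 days. The BH3-only gene Bmf was higher at 7 days (1.17, SE 0.13, adjusted p = 3.18e-05), in 1 of its 3 probe sets, and had 0.39 at 3 days. Pmaip1, the BH3-only protein Noxa, was higher at 7 days (0.86, SE 0.25, adjusted p = 0.0234) and lost the call when any of 5 single arrays was left out, with 0.61 as the lowest value (without ouabain replicate 1). Its means at 7 days, 4.93 in ouabain-treated nerves and 4.07 in controls, were both below 6. Named after their values were seen, Bik, another BH3-only gene, was higher at 7 days (0.74, adjusted p = 0.0036) but had 0.53 without control replicate 1, below 1.5-fold. Bnip3, a mitochondrial protein induced by hypoxia, was lower at both days (-0.72 and -0.66). The further guardians were also named afterwards. The brightest probe set of Mcl1 (0.35 and 0.53) did not reach 1.5-fold, while 2 of its 6 probe sets were called higher at each day and their mean was 0.56 and 0.58. Bcl2l2 (-0.52 and -0.39) did not reach 1.5-fold.

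Among 6 other caspases, 3 rose and 0 fell at each day (limma, none fell at an unadjusted p below 0.05 either), with a median of 0.59 and 0.51. Casp1, the inflammatory caspase that matures interleukin-1 beta, had 1.39 at 3 days and 1.12 at 7 days (SE 0.15 each, adjusted p = 4.1e-05 and 0.000211). Casp4, which senses bacterial lipopolysaccharide, had 0.999 and 1.64 (SE 0.15 each, adjusted p = 0.00038 and 1.01e-05). Casp6, an executioner caspase, had 0.74 and 0.60 (SE 0.10 each). Its mean over probe sets, 0.44 and 0.37, did not reach 1.5-fold, nor did its 7-day difference without ouabain replicate 3 (0.58) or control replicate 1 (0.56). Of 8 inflammasome genes, Casp1 and Casp4 included, 3 rose at 3 days, 4 rose at 7 days and none fell (limma, none at an unadjusted p below 0.05), with a median of 0.26 and 0.49. Pycard, the adaptor that recruits Casp1, had 1.39 and 1.14 (SE 0.14 each, adjusted p = 1.9e-05 and 7.84e-05) in 1 of its 3 probe sets. Gsdmd, the pore protein of pyroptosis, was higher at 7 days (0.59, SE 0.09), just past 1.5-fold, and lost the call without any of 3 single arrays, with 0.57 as the lowest value (without control replicate 2).

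Of 14 death receptors and their adaptors, 5 rose and 1 fell at 3 days, and 6 rose and 1 fell at 7 days, with a median of 0.12 and 0.42. Tnfrsf1a, the main receptor of tumour necrosis factor, had 0.83 and 1.06 (SE 0.10 each, adjusted p = 7.59e-05 and 1.27e-05). Fas, the receptor of Fas ligand, was higher at 7 days (0.87, SE 0.15, adjusted p = 0.001) and had 0.00067 at 3 days. Mlkl, which carries out necroptosis, had 1.41 at 3 days and 0.70 at 7 days (SE 0.21 each, adjusted p = 0.00035 and 0.0274), and lost the 7-day call without any of 4 single arrays, with 0.60 as the lowest value (without ouabain replicate 3). Its level was low, with means of 6.62 in ouabain-treated nerves and 5.21 in controls at 3 days. At 7 days the means were 5.84 in ouabain-treated nerves and 5.13 in controls. Tnfrsf21, death receptor 6, was lower, with -0.99 and -1.80 (SE 0.08 each, adjusted p = 3.07e-06 and 6.67e-08). The other members called, named after their values were seen, were Fadd (0.83 at 3 days), Cflar (0.66 and 0.73), Ripk3 (0.65 and 0.67) and Tnfsf10 (0.77 at 7 days). Fadd joins Casp8 to its receptors and Cflar encodes cFLIP, which restrains it. Ripk3 lost the call without any of 5 arrays at 3 days and of 3 at 7 days, with 0.43 as the lowest value at 7 days (without ouabain replicate 3), and Tnfsf10 fell to 0.55 without ouabain replicate 1.

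Of 10 genes of the apoptosome and mitochondrial release, 1 rose and 3 fell at 3 days, and 0 rose and 3 fell at 7 days (limma, 1 higher at an unadjusted p below 0.05), with a median of -0.12 and -0.42. Apaf1, the scaffold of the apoptosome, was higher at 3 days (0.72, SE 0.11, adjusted p = 0.000503). Dffa, the inhibitor of the apoptotic nuclease, had -0.74 and -1.02 (SE 0.14 each, adjusted p = 0.00196 and 0.000211), the channel Vdac1 had -0.66 and -0.81 (SE 0.09 each) and the nuclease Endog had -0.63 and -0.64 (SE 0.09 each). Cycs, the cytochrome c that activates the apoptosome, was named after its values were seen. Its brightest probe set had -0.12 and -0.46 and was not called, while 1 of its 4 probe sets was called lower at 3 days and 3 at 7 days. As the mean of its probe sets Cycs had -0.56 at 3 days and -0.98 at 7 days (SE 0.08, adjusted p = 5.31e-06), which makes 4 genes of the list lower at 7 days by gene means. Of 7 inhibitor of apoptosis genes, 0 were called at 3 days (limma, 2 at an unadjusted p below 0.05) and 1 at 7 days, Birc3 (cIAP2), with 0.63 (SE 0.10, adjusted p = 0.000783). Birc3 had 0.55 without ouabain replicate 1, below 1.5-fold.

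Among 13 genes of p53 and its targets, 2 rose and 1 fell at 3 days, and 2 rose and 0 fell at 7 days (limma, 4 lower at an unadjusted p below 0.05), with a median of -0.07 and 0.19. Gadd45a, a growth arrest gene, had 2.97 and 3.05 (SE 0.09 each, adjusted p = 6.22e-09 and 3.7e-09), with means of 11.6 in ouabain-treated nerves and 8.68 in controls at 3 days. The kinase Plk2 had 3.05 and 1.44 (SE 0.17 each), and 1.47 and 0.56 as the mean of its 2 probe sets. Zmat3 was lower at 3 days (-0.67, SE 0.11). Of 12 genes of endoplasmic reticulum stress, 1 was higher at each day and 0 were lower (limma, 2 and 1 lower at an unadjusted p below 0.05), with a median of 0.11 and 0.19. This was Atf3, a transcription factor that injured neurons and Schwann cells also express, with means of 12.0 in ouabain-treated nerves and 7.63 in controls at 3 days and log2 differences of 4.42 and 4.48 (SE 0.12 each, adjusted p = 2.81e-09 and 3.13e-09). The classical members Ddit3 and Hspa5 were not called.

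Among 11 JNK, FOXO and related regulators of BH3-only genes, 4 rose and 3 fell at 3 days, and 3 rose and 3 fell at 7 days, with a median of 0.29 and 0.31. The AP-1 genes Fos (2.93 and 2.35, SE 0.26 each) and Jun (1.37 and 1.25, SE 0.14 each) rose at both days. The kinases Mapk10 (JNK3, the neuronal form), with -2.56 and -3.19 (SE 0.32 each), and Mapk8 (JNK1), with -1.40 and -1.42 (SE 0.13 each), were lower. Mapk10 was lower in 2 of its 3 probe sets and Mapk8 in 2 of its 5. Named after their values were seen, Map3k12, the axon injury kinase DLK, was lower (-1.22 and -1.05, in 1 of its 4 probe sets), Egr1 was higher (0.91 and 1.26) and E2f1 was higher at 3 days (0.82). Of the 91 pathway genes measured, 9 had an uncalled brightest probe set but another probe set called at 3 or 7 days. As means over their probe sets, several called genes of these lists did not reach 1.5-fold. At 3 days these were Bak1 (0.49), Fadd (0.52), Apaf1 (0.44), Dffa (-0.47) and Map3k12 (-0.51). At 7 days they were Bmf (0.57), Bik (0.57), Birc3 (0.35), Tnfsf10 (0.50), Pycard (0.56), Plk2 (0.56), Mapk8 (-0.55) and Map3k12 (-0.22).

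**Figure D4:**
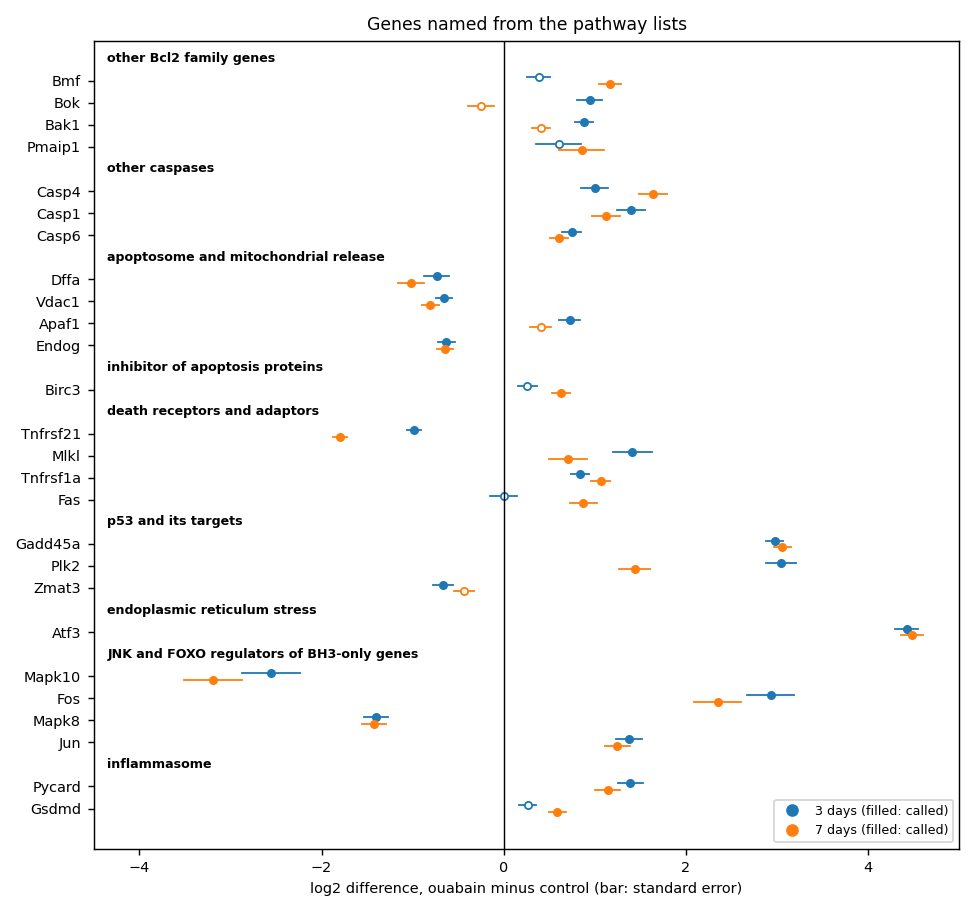
The log2 difference (ouabain minus control, horizontal axis) of the genes named from the pathway lists, cell type markers left out, is shown with its standard error at 3 days and at 7 days, grouped by list; filled points were called. Of the genes plotted, Atf3, Plk2, Gadd45a and Fos lie farthest to the right (2.93 to 4.42 at 3 days), and Mapk10 (-2.56 at 3 days) farthest to the left.

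The genes whose centred profile over the 12 arrays lay nearest to each raised member were found among 18193 genes by the root mean square distance on the log2 scale. For Bcl2 these were Cyba (0.0795), a subunit of the phagocyte oxidase, Zcchc24 (0.0927) and the collagen gene Col16a1 (0.101). For Casp8 they were Myd88 (0.0756), the adaptor of Toll-like receptors, Cnpy4 (0.076) and the interferon receptor gene Ifnar2 (0.0775). For Casp12 they were Pmepa1 (0.118), Pcolce (0.127), an enhancer of procollagen processing, and Aebp1 (0.134). All 9 genes were higher at both days, with log2 differences between 0.64 and 1.26 (Aebp1 had 0.52 at 3 days without ouabain replicate 3), and the likeness is a description over arrays that share the treatment.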

How the data were processed

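The members and the gene lists were chosen with earlier results of these data known. Auditory nerve tissue was hybridised to 12 Affymetrix Mouse Genome arrays. The authors made the deposited log2 values by RMA in the Expression Console (background corrected, quantile normalized and summarised per probe set), with MAS5 also named and versions not given in the sources used here, and these values were used without further normalization. The 64 Affymetrix controls among 45101 rows were dropped. Symbols are those of the platform annotation (932 probe sets with several symbols and 9160 with none stand for no gene). Elsewhere a gene is its probe set with the highest mean. Over all 12 arrays, limma 3.58.1 (R 4.3.3) estimated the 4 group means with empirical Bayes moderation, and the rest was computed with Python 3.11.15. The number of arrays limits the precision. The procedure was tested on simulated data.

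Named genes were all member probe sets, up to 4 called genes with the largest change from each of 9 pathway lists (the 2 with the highest mean where none was called) and the 3 nearest profiles of each raised member. From 9 lists of cell type markers the 2 genes with the highest mean were taken, and the lists are given as counts. Of these lists, neutrophils (7 genes measured), T cells (4), osteoblasts (5), erythroid cells (3) and hair cells (5) had 0 genes called at either day (limma; at an unadjusted p below 0.05, 2 osteoblast genes were higher at 7 days and no other gene of these lists was, and 2 osteoblast genes were called higher at 7 days as means over their probe sets). The alternatives were a block for the replicate number, a fit of each day alone, the methods' t-test with and without adjustment, an unequal-variance form, a filter on dim probe sets, subtracting the 75th percentile, a second quantile normalization, a variance trend with robust moderation, array weights, no fold limit, a fold above 2, gene means, each array left out and, chosen after seeing the data, leaving out 2 arrays.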

Additional observations from a re-analysis of the deposited data

Results flagged for a closer look

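The difference between the responses at 7 and 3 days was tested in limma for each named gene, and it passed for 4 genes outside the members. Bok had -1.19 (SE 0.20, adjusted p = 0.0153), with means of 9.14 in ouabain-treated nerves and 8.20 in controls at 3 days and of 8.02 in ouabain-treated nerves and 8.27 in controls at 7 days. Tnfrsf21 had -0.81 (SE 0.11, adjusted p = 0.00484), with means of 10.2 in ouabain-treated nerves and 11.1 in controls at 3 days and of 9.27 in ouabain-treated nerves and 11.1 in controls at 7 days, but the mean of its 2 probe sets, -0.57, was below 1.5-fold and lost the call. Plk2 had -1.61 (SE 0.24, adjusted p = 0.00858), with means of 11.5 in ouabain-treated nerves and 8.43 in controls at 3 days and of 9.69 in ouabain-treated nerves and 8.25 in controls at 7 days, and -0.92 as the mean of its 2 probe sets. The macrophage marker Lgals3 had -1.22 (SE 0.23, adjusted p = 0.0308), with means of 13.2 in ouabain-treated nerves and 9.37 in controls at 3 days and of 12.1 in ouabain-treated nerves and 9.46 in controls at 7 days. Lgals3 did not pass when any of 7 single arrays was left out, with values from -1.28 to -1.07 in those fits.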

How the results depend on the processing

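The 6 member probe sets called at 3 days and the 8 called at 7 days ranged from 6 to 7 and from 8 to 8 when each array was left out, and the counts of the day difference and of the controls stayed at 0. The unequal-variance form with adjusted p called 0 at 3 days and 2 at 7 days, with the same differences and adjusted p of 0.0543 to 0.0752 for the 6 at 3 days, and a fold above 2 left 1 at 3 days. For the day difference, the filter on dim probe sets called 2 and the variance trend with robust moderation called 2, both times 1435448_at and 1456005_a_at of Bcl2l11. The replicate block gave 6 and 8 and changed no other call of a member, and the equal numbers were not taken as pairs, since the correlations of deviations were 0.334, 0.0892 and 0.177 at 3 days and 0.277, 0.155 and 0.0189 at 7 days and ouabain replicate 2 at 3 days and replicate 3 at 7 days correlated best with another number. The methods' t-test with adjustment called 6 member probe sets at each day. Among the other named genes, Dffa, Mlkl, Zmat3, Ripk3, Egr1 and Aebp1 lost the 3-day call with it. Fas, Mlkl, Pmaip1, Bik, Cflar, Ripk3 and Tnfsf10 lost the 7-day call. Pmaip1 and Ripk3 lost the 7-day call without adjustment too. Signs turned only for values close to 0 that were not called. Subtraction of the 75th percentile gave 0.018 for 1426050_at of Bcl2l1 and 0.028 for 1426334_a_at of Bcl2l11 at 3 days, the second quantile normalization gave -0.014 for Fas at 3 days, and the fit without 2 arrays gave 0.0095 for 1426050_at of Bcl2l1 at 3 days, 0.0702 for 1420887_a_at of Bcl2l1 and 0.0093 for 1450366_at of Hrk at 7 days. With each array left out, the ranges were -0.11 to 0.067 for 1426050_at of Bcl2l1, -0.057 to 0.057 for 1426334_a_at and -0.14 to 0.029 for 1456006_at of Bcl2l11 and -0.077 to 0.093 for Fas at 3 days, and -0.072 to 0.0702 for 1420887_a_at and -0.10 to 0.023 for 1426191_a_at of Bcl2l1, -0.088 to 0.16 for 1447873_x_at and -0.078 to 0.13 for 1448560_at of Bid, -0.14 to 0.0093 for 1450366_at of Hrk and -0.075 to 0.23 for E2f1 at 7 days. The cause of these changes was not tested.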
